A study of Mus musculus with 5 samples.

Results

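The acute phase genes described here are 10 genes of secreted plasma proteins, listed by symbol: Saa1, Saa2, Saa4, Orm1, Orm2, Hp, Fgb, Fgg, Apcs and Lcn2. The list was made with earlier results of these data known. All 10 were among the 13966 gene symbols of the deposited table, and 7 of them passed the filter on low values described below, as did 8973 genes in all. RNA was measured by sequencing in hepatocytes of ICR mice, an outbred stock, all of which received a probe that reports fatty acid oxidation by fluorescence. Cells were parted by fluorescence-activated sorting, and the 5 libraries are the negative, positive and high probe gates of mice given bezafibrate, and the positive and negative gates of control mice. Bezafibrate is an agonist of the peroxisome proliferator-activated receptors (PPARs). There is 1 library in each group and thus no replicate check of any difference, and p-values are left out. The sources used here do not give the number, age or sex of the mice, the dose, or whether the gates of a treatment shared a liver, so treatment and mouse cannot be told apart.

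The acute phase response is the change in plasma proteins that the liver makes after infection or injury. Interleukin-6 acts on hepatocytes through STAT3, and interleukin-1 and tumour necrosis factor act through NF-kB, while C/EBP factors take part in both arms. Serum amyloid A, haptoglobin, orosomucoid and fibrinogen increase in that response, and albumin and transferrin, called negative acute phase proteins, decrease. PPARalpha agonists are known to damp the induced response in liver. No inflammatory stimulus is named in the labels of these mice.

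Levels below are deposited normalised read counts, and 1 read was worth 0.133 to 0.216 of them, depending on the library. Recovered depth was 5993366 to 7146578 reads in the bezafibrate libraries and 5056884 and 5454866 reads in the control libraries. The ribosomal RNA precursor Rn45s held 10.5% to 18.5% of reads in the bezafibrate libraries, against 34.8% and 36.3% in the control libraries. All 10 hepatocyte markers were above 0 in the 5 libraries. Their summed values were 74697 to 101810 in bezafibrate and 47183 and 48686 in control positive and negative. Of these sums, Alb alone gave 48208.5 to 72188.3 and 23064 and 24303. Of 11 Kupffer cell markers, 7 had a row, with summed values of 4.57 to 9.06 in bezafibrate and 4.93 to 8.41 in control libraries. Of 10 neutrophil markers, Cxcr2 alone had a row, at 11.5 to 15.6 in bezafibrate and 17.0 and 20.9 in control libraries. Of 10 sinusoidal endothelial markers, 9 had a row, with sums of 22.1 to 37.0 in bezafibrate and of 22.4 and 33.5 in control positive and negative. Of 9 stellate cell markers, 7 had a row, with sums of 31.0 to 40.1 in bezafibrate and of 111 and 101 in control positive and negative, of which Reln alone gave 28.5 to 29.8 and 106 and 93.4. Of 8 cholangiocyte markers, 5 had a row, with sums of 37.0 to 40.5 in bezafibrate and of 45.9 and 51.7 in control positive and negative. Of 8 T, NK and B cell markers, 0 had a row used here. Whether Rn45s or these markers have a part in the results below was not tested, apart from the rescaling to reads outside Rn45s.

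The members lie in 3 clusters and 3 single loci on GRCm38, the assembly also called mm10. Saa1 (chromosome 7, 46740497 to 46742980) and Saa2 (46751790 to 46754313) are 8.81 kb apart and point away from each other, with Saa4 (46727998 to 46732603) beside them. Orm1 (chromosome 4, 63344560 to 63348163) and Orm2 (63362449 to 63365878) are 14.3 kb apart. Fgg (chromosome 3, 83007724 to 83015049) and Fgb (83040141 to 83049863) flank Fga. A non-coding gene is annotated on the strand opposite Fgg, and whether the counting used strand is not stated, so reads of the pair may not be separable. Hp lies on chromosome 8 (109575128 to 109579172), Apcs on chromosome 1 (172893961 to 172895041) and Lcn2 on chromosome 2 (32384633 to 32388252). Copies are similar: the longest coding transcripts of Saa1 and Saa2 were 87.3% identical and those of Orm1 and Orm2 91.0% identical. No window of 150 bases, the read length, was shared by either pair, but 13.2% of the 50-base windows of Saa1 occurred in Saa2 and 20.4% of those of Orm1 in Orm2. The sources used here do not say how reads shared by copies were counted, so the split between copies is uncertain.

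Sequences upstream of the start are shown for the serum amyloid A pair Saa1 and Saa2, for the fibrinogen pair and for Apcs, the member with the largest bezafibrate difference in the negative gate. They come from RefSeq's GRCm38.p6 annotation and are written 5′ to 3′ on the gene's own strand. Capitals mark matches to CTGGGA (a core of interleukin-6 response elements), TTCNNNGAA (a STAT site) and TTGCNNAA (a C/EBP site) on either strand. The Saa2 sequence stops where an annotated transcript begins.
Saa1 (chr7:46742981-46743230, minus strand): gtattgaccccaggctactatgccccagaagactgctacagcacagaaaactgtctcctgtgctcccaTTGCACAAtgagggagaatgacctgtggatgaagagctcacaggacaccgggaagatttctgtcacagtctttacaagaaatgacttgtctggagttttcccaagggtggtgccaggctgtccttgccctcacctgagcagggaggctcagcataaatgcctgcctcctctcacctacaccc
Saa2 (chr7:46751583-46751789, plus strand): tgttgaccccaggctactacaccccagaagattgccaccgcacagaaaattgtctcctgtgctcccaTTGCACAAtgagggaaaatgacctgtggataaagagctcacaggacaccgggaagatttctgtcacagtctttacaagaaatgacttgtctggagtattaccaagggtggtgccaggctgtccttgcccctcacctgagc
Fgb (chr3:83049864-83050113, minus strand): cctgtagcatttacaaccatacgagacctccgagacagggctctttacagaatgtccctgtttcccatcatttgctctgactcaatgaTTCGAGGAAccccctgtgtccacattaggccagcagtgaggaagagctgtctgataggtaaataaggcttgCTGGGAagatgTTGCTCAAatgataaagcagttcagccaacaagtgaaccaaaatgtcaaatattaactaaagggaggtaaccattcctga
Fgg (chr3:83007474-83007723, plus strand): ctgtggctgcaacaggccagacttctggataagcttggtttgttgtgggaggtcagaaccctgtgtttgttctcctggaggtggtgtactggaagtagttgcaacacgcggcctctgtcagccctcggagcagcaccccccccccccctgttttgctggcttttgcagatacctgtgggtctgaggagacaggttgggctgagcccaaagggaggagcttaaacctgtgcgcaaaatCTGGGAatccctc
Apcs (chr1:172895055-172895304, minus strand): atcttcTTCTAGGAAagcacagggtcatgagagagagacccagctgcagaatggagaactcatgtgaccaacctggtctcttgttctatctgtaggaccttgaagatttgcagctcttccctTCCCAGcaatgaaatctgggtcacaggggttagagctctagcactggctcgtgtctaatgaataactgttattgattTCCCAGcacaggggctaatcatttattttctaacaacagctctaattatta
Over the 250 bases before each start, Saa1 and Saa2 were 94.8% identical, and both held TTGCACAA, which starts at -182 in Saa1 and at -183 in Saa2, counted from the RefSeq start. Fgb and Fgg, which are co-expressed subunits, were 43.9% identical there. A window was found for 8 members, not for Orm1 and Hp. The C/EBP letters were in 6 of the 8 windows, against 9.56% of all 32851 such windows. The near copies Saa1 and Saa2 are both among these 6, so the windows are not independent. CTGGGA was in 3 of 8, against 27.0%, and TTCNNNGAA in 2 of 8, against 7.02%. The NF-kB, HNF1 and PPAR direct-repeat motifs were in 0 of 8, against 1.41%, 0.009% and 0.033% of all windows. Among the 13 matches, 0 pairs overlapped. A match to these letters does not show that a factor binds, and the lack of one does not show that a site is absent.

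Per kilobase of the longest coding transcript, haptoglobin and the fibrinogen chains were at the top in these libraries. The mean over the 5 libraries was 1074 normalised read counts per kilobase for Hp, the haemoglobin scavenger haptoglobin, 1064 for Fgg and 675 for Fgb, the gamma and beta chains of fibrinogen. The order of the first pair differed between libraries, with Fgg above Hp in bezafibrate negative at 1697 against 1436, and below it in bezafibrate high at 1297 against 1464. Orm1, the lipocalin orosomucoid, averaged 243, Saa4, the constitutive serum amyloid A, 176, and Apcs, the pentraxin serum amyloid P, 111. Saa1, the inducible serum amyloid A of high-density lipoprotein, averaged 23.1. In the 5 libraries Saa4 was 6.38 to 12.6 times as high as Saa1 per kilobase. Saa2, at 4.22, Lcn2, the iron-siderophore binding lipocalin 2, at 3.99, and Orm2, at 2.54, were lowest. Their counting intervals overlapped with each other in every library, except those of Saa2 and Orm2 in control negative.

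**Figure D1:**
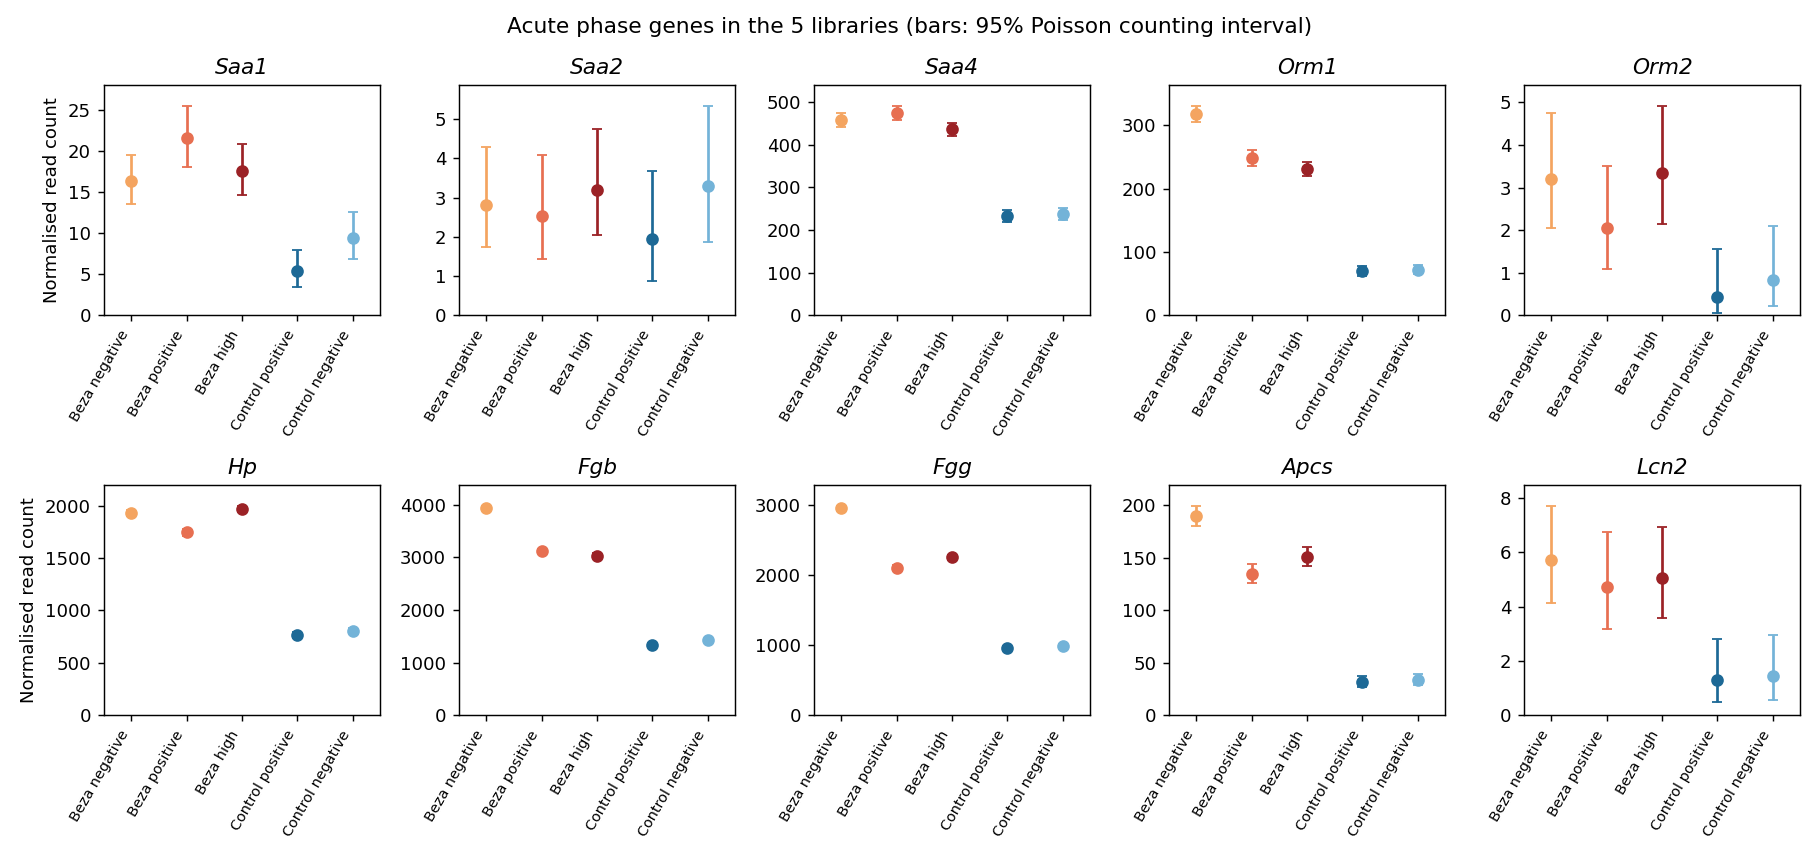
Normalised read count (y axis, from 0) of each of the 10 acute phase genes in the 5 libraries (x axis), with 95% Poisson counting intervals; Beza stands for bezafibrate. Saa2 is the panel in which the values of bezafibrate and control libraries overlap, and in the Orm2 panel their intervals overlap but not their values.

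Bezafibrate libraries had higher values of 9 of the 10 genes than control libraries. For these 9, each of the 3 bezafibrate libraries lay above both control libraries, which was also so for 30.3% of all genes in the table, and the exception was Saa2. No member lay below both control libraries in all 3, against 27.8% of genes. Of the 7 members that passed the filter, 7 were at least 2-fold higher in the positive gate, against 4.94% of the genes analysed, and 5 in the negative gate, against 10.2%. None was at least 2-fold lower, against 2.91% and 5.86%. Among genes with a mean of at least 100.4 normalised read counts, 9.18% and 17.1% were at least 2-fold higher. The median log2 difference, after adding a pseudocount of 1.0 normalised read count, was 1.22 in the positive and 1.47 in the negative gate. Over all genes analysed it was 0.0041 and 0.025. Without the filter, 9 of the 10 members were at least 2-fold higher in the positive gate, against 4.76% of all genes, and 7 in the negative gate, against 8.58%, and 0 were 2-fold lower, against 3.01% and 5.79%. As in any bulk sample, more cells that express a gene and more of its RNA per cell cannot be told apart.

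Fibrinogen, the clotting protein, and haptoglobin had folds between 2.20 and 3.01. Fgb had 3938, 3118 and 3035 normalised read counts in bezafibrate negative, positive and high, and 1340 and 1422 in control positive and negative. The bezafibrate values lay well above both control values, and the fold over control was 2.33 in the positive gate (95% Clopper-Pearson counting interval 2.26 to 2.40) and 2.77 in the negative gate (2.70 to 2.84). Fgg had 2955, 2106 and 2258 in bezafibrate negative, positive and high, and 957 and 983 in control positive and negative. The groups did not overlap either, with folds of 2.20 (2.13 to 2.28) in the positive and 3.01 (2.91 to 3.10) in the negative gate. Hp had 1932, 1745 and 1969 in bezafibrate negative, positive and high, against 767 and 808 in control positive and negative. Its folds were nearly alike in the gates, at 2.28 (2.19 to 2.36) in the positive and 2.39 (2.31 to 2.48) in the negative gate. All folds are plain ratios of deposited values, and the intervals cover counting error only.

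Among the members analysed, Apcs and Orm1 had the largest folds in the negative gate. Apcs had 189, 135 and 151 normalised read counts in bezafibrate negative, positive and high, and 31.5 and 33.3 in control positive and negative. Its folds were 4.28 (3.59 to 5.14) in the positive gate and 5.69 (4.83 to 6.74) in the negative gate. Serum amyloid P binds amyloid fibrils and microbial surfaces, and in mice it is the classical acute phase pentraxin. Orm1 had 318, 248 and 231 in bezafibrate negative, positive and high, and 70.3 and 72.1 in control positive and negative, with folds of 3.53 (3.14 to 3.99) and 4.41 (3.94 to 4.95) in the positive and negative gates. The control values of both genes lay close together, and every bezafibrate value was more than 3 times as high. Orm2 had 24, 13 and 25 reads in bezafibrate negative, positive and high, and 2 and 4 reads in control positive and negative. Its fold intervals, 1.08 to 43.4 and 1.34 to 15.4 in the positive and negative gates, lay above 1 but fixed no size.

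The serum amyloid A genes differed among themselves. Saa1 had 16.4, 21.6 and 17.6 normalised read counts in bezafibrate negative, positive and high, from 123, 137 and 132 reads. It had 5.39 and 9.44 in control positive and negative, from 25 and 46 reads. The folds were 4.01 (2.60 to 6.41) in the positive and 1.74 (1.23 to 2.49) in the negative gate. Saa4 had 458, 473 and 436 in bezafibrate negative, positive and high, and 233 and 238 in control positive and negative, with folds near 2 in both gates, at 2.03 (1.89 to 2.18) and 1.92 (1.80 to 2.06). Saa2 had 2.80, 2.52 and 3.20 in bezafibrate negative, positive and high, and 1.94 and 3.28 in control positive and negative. These groups overlapped, and at 9 to 24 reads a library the folds of 1.30 (0.541 to 3.34) and 0.852 (0.424 to 1.75) show no difference that could be detected at this depth. Lcn2, which neutrophils also make, had 5.73, 4.73 and 5.06 in bezafibrate negative, positive and high, and 1.29 and 1.44 in control positive and negative. Its folds were 3.66 (1.5 to 10.7) and 3.99 (1.78 to 10.5) in the positive and negative gates. Whether neutrophils have a part in the Lcn2 values was not tested.

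**Figure D2:**
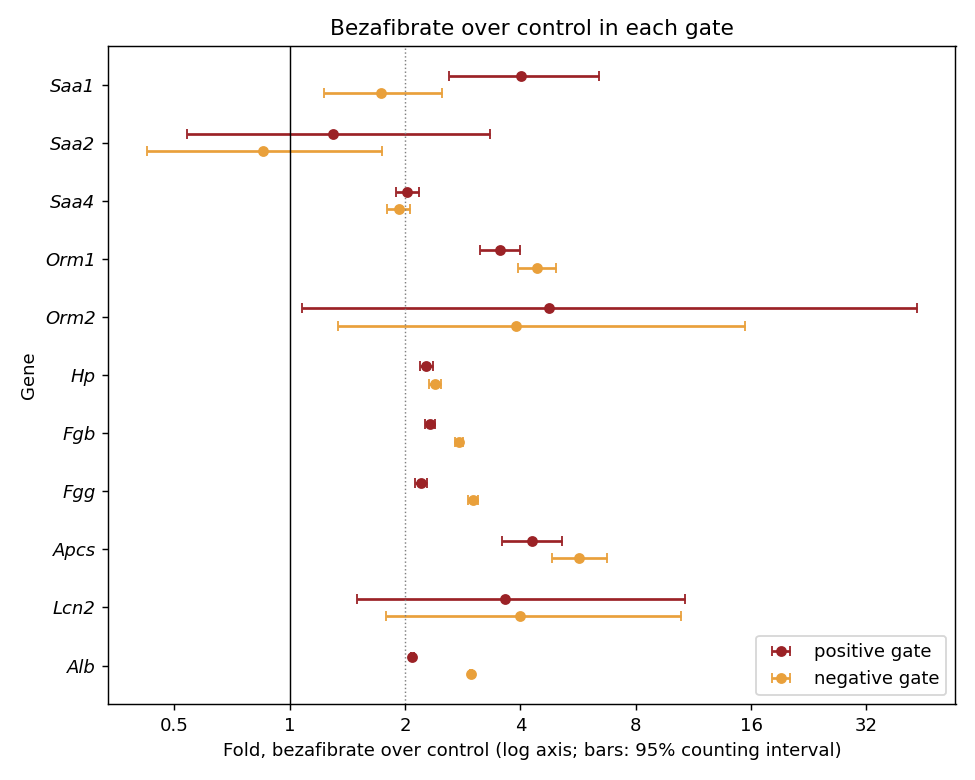
Fold of bezafibrate over control (log axis) for the 10 genes and albumin in the positive gate and the negative gate, with 95% counting intervals; the solid line marks 1 and the dotted line 2. Apcs and Orm1 lie to the right of the fibrinogen genes and Hp, and the intervals of Saa2 span 1 in both gates.

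The counting interval of the fold lay above 1 for 9 of the 10 members in each gate, against 18.7% of all genes in the positive and 23.5% in the negative gate, and below 1 for 0 members, against 17.4% and 21.6%. Counting intervals narrow with read number, and these shares include the genes below the filter. No share among genes of like read number was computed, here or for the gate comparisons below. As a share of reads, the 10 genes together held 1.03%, 0.832% and 0.891% in bezafibrate negative, positive and high, and 0.313% and 0.319% in control positive and negative. Of reads outside Rn45s they held 1.15%, 1.02% and 1.03%, against 0.479% and 0.501%. With values scaled to equal totals outside Rn45s, member folds ranged between 1.20 and 4.39 in the positive and between 0.712 and 4.76 in the negative gate. The interval then lay above 1 for 8 members in the positive gate, without Orm2, against 14.5% of all genes, and for 9 in the negative gate, against 15.8%. It lay below 1 for 0 members in either gate, against 22.5% and 31.3% of all genes. That scaling moved the median log2 difference of all genes to -0.11 in the positive and -0.22 in the negative gate.

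Other plasma protein genes were higher as well, so the members were set beside albumin. Alb had folds of 2.09 (2.08 to 2.10) in the positive and 2.97 (2.95 to 2.99) in the negative gate. Its log2 differences of 1.06 and 1.57 were the highest of the 10 negative acute phase genes, whose medians were 0.37 and 0.71. A reference gene with a smaller fold would give the members higher ratios in bezafibrate relative to control libraries. Per 1000 normalised read counts of Alb, Fgg had 40.9, 43.7 and 41.4 in bezafibrate negative, positive and high, and 41.5 and 40.4 in control positive and negative. Fgb, at 54.5 to 64.7 in bezafibrate and 58.1 and 58.5 in control libraries, and Hp, at 26.8 to 36.2 and at 33.2 in both controls, had ranges that enclosed the control values. Saa4 was at 6.34 to 9.82 in bezafibrate libraries, against 10.1 and 9.78 in control positive and negative. Apcs had 2.62, 2.80 and 2.77 in bezafibrate negative, positive and high, and 1.36 and 1.37 in control positive and negative. Orm1 had 4.40, 5.15 and 4.24 in bezafibrate negative, positive and high, against 3.05 and 2.97 in control positive and negative. Lcn2 had 0.079, 0.098 and 0.093 in bezafibrate negative, positive and high, and 0.056 and 0.059 in control positive and negative, and Orm2 0.044, 0.043 and 0.061, against 0.019 and 0.034. Saa2 had 0.039, 0.052 and 0.059 in bezafibrate negative, positive and high, and 0.084 and 0.135 in control positive and negative. Saa1 had 0.227, 0.448 and 0.323 in bezafibrate negative, positive and high, and 0.234 and 0.389 in control positive and negative. On this scale Apcs, Orm1, Orm2 and Lcn2 lay above both control libraries in each bezafibrate library, Saa2 lay below both, and Saa1, Hp, Fgb and Fgg overlapped with the controls. Saa4 overlapped through bezafibrate positive alone. The share of all genes that lay above or below both controls on this scale was not computed, so these members are not set against it. Orm2, Lcn2 and Saa2 rest on 2 to 43 reads a library.

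Positive and negative acute phase genes were not opposed. Of 25 other positive acute phase genes, 21 were analysed, and 20 of these were above 0 in the positive and 17 in the negative gate. At least 2-fold higher were 5 and 6, and 0 were 2-fold lower. Their median log2 differences were 0.50 and 0.63. Over all genes analysed, 4521 and 4614 of 8973 were above 0 in the positive and negative gates. Of all genes analysed, 4.94% and 10.2% were at least 2-fold higher and 2.91% and 5.86% lower. Hamp, the iron hormone hepcidin, had folds of 4.83 (4.30 to 5.44) and 5.59 (5.03 to 6.21) in the positive and negative gates, and Cp, the copper oxidase ceruloplasmin, 2.17 (2.05 to 2.29) and 2.96 (2.81 to 3.11). Complement C3, the gene of this list with the highest normalised read counts, had 1.42 (1.40 to 1.44) and 1.91 (1.88 to 1.93), and Fga, the alpha chain of fibrinogen, 1.54 (1.51 to 1.58) and 1.96 (1.92 to 1.99). Of 10 negative acute phase genes, all analysed, 8 were above 0 in the positive and 10 in the negative gate, with medians of 0.37 and 0.71. Serpina6, corticosteroid-binding globulin, had folds of 2.08 (1.86 to 2.33) and 2.99 (2.69 to 3.32), while Trf, transferrin, had 1.01 (0.9996 to 1.02) and 1.35 (1.33 to 1.36). The 25 other plasma protein genes had medians of 0.87 and 1.21, with 6 and 16 at least 2-fold higher and 1 and 0 lower. Among them Apob, the scaffold of very-low-density lipoprotein, had 7561 and 11648 normalised read counts in bezafibrate positive and negative, against 4132 and 4104 in control positive and negative. Serpind1, the thrombin inhibitor heparin cofactor II, had 346 and 489 in bezafibrate positive and negative, against 113 and 121 in control positive and negative. Gc, the vitamin D-binding protein, had folds of 1.92 (1.87 to 1.98) in the positive and 2.72 (2.65 to 2.79) in the negative gate, and Klkb1, plasma prekallikrein, 2.55 (2.24 to 2.92) and 3.26 (2.88 to 3.70).

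**Figure D3:**
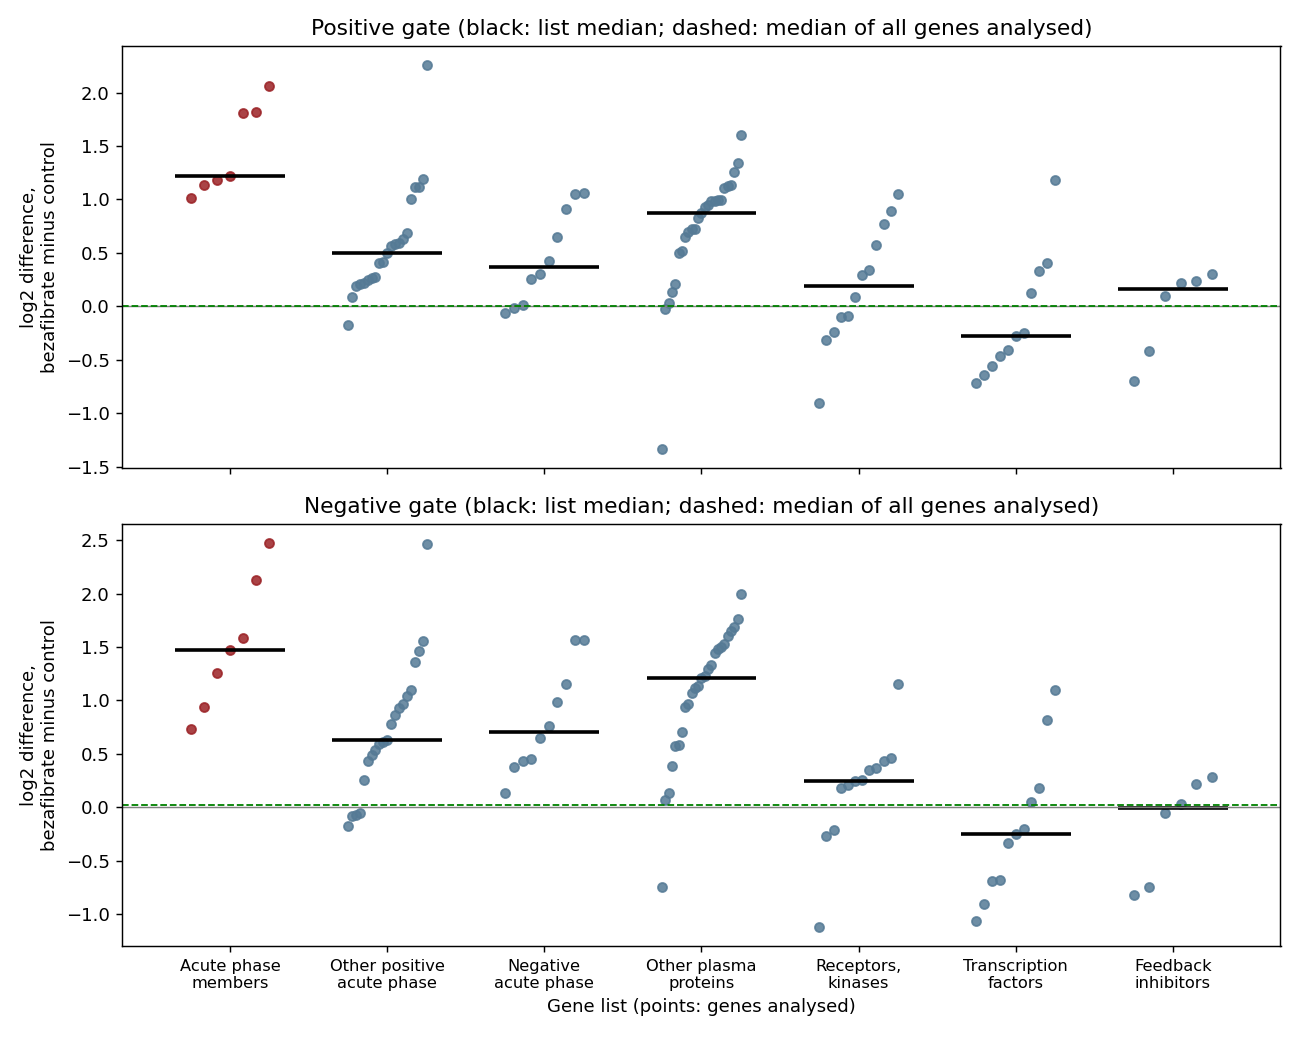
Difference of log2(value + pseudocount), bezafibrate minus control (y axis), for the genes analysed of 7 lists (x axis) in the positive gate (top) and the negative gate (bottom); bars are list medians and the dashed line is the median of all genes. The acute phase members have medians of 1.22 and 1.47. The lists of receptors, factors and inhibitors have medians from -0.28 to 0.25, with genes on either side of 0.

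Lists of receptors and kinases, of transcription factors and of feedback inhibitors tied to the acute phase response had medians near 0, with genes on either side. Over all genes analysed, 4.94% and 10.2% were at least 2-fold higher in the positive and negative gates, and 2.91% and 5.86% lower. Of 14 receptors, kinases and adaptors, 12 were analysed, with medians of 0.19 and 0.25 in the positive and negative gates, 1 in each gate at least 2-fold higher and 0 and 1 lower. Il1rap, the co-receptor of interleukin-1, had folds of 2.09 (1.84 to 2.38) and 2.24 (1.99 to 2.52), and the kinase Tyk2 0.527 (0.436 to 0.637) and 0.451 (0.377 to 0.539). Lifr, the leukaemia inhibitory factor receptor, had 0.804 (0.777 to 0.833) and 0.829 (0.80 to 0.859). Of 12 transcription factors, 11 were analysed, with medians of -0.28 and -0.25, 1 in each gate at least 2-fold higher and 0 and 1 lower. Ppara, a receptor of the agent, was the factor counted as 2-fold higher in each gate, with folds of 2.27 (2.14 to 2.42) and 2.14 (2.02 to 2.28). Hnf4a had 0.680 (0.653 to 0.709) and 0.618 (0.594 to 0.643), and Cebpd 0.574 (0.378 to 0.868) and 0.499 (0.342 to 0.724). Cebpb, named after its values were seen, had 0.752 (0.696 to 0.811) and 0.476 (0.441 to 0.513). It was the factor counted as 2-fold lower in the negative gate. The counts use log2 values with the pseudocount, which left Cebpd out, while the folds are plain ratios. Of 8 feedback inhibitors, 6 were analysed and 0 were 2-fold different in either gate, with medians of 0.16 and -0.0096. Socs3, which STAT3 induces and which blocks the interleukin-6 receptor, had 22.4 and 16.4 normalised read counts in bezafibrate positive and negative, against 30.2 and 29.8 in control positive and negative. Zfp36, an RNA-binding protein that destabilises cytokine RNA, had 633 and 607 in bezafibrate positive and negative, against 1030 and 1019 in control positive and negative. Nfkbia, the inhibitor of NF-kB, had 59.3 and 53.9 in bezafibrate positive and negative, against 47.9 and 55.8 in control positive and negative, with folds of 1.24 (1.05 to 1.47) and 0.964 (0.825 to 1.13). Of 8 cytokine genes 3 had a row, Il1a, Il1b and Lif, and their sums were 3 to 9 reads in each library.

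The agent's known targets were checked in the same libraries. Of 8 PPARalpha target genes, 5 were at least 2-fold higher in each gate, against 4.94% of genes analysed in the positive and 10.2% in the negative gate. Among the 5, Ehhadh of peroxisomal beta-oxidation had folds of 14.5 (13.1 to 16) and 24.9 (22.4 to 27.7) in the positive and negative gates. The omega-hydroxylases Cyp4a14 and Cyp4a10 had folds of 5.27 (5.0 to 5.55) and 7.99 (7.35 to 8.69) in the positive gate. In the same gate 2 of the 8, Pdk4 and Fgf21, were at least 2-fold lower, against 2.91% of genes analysed. In the negative gate Fgf21 was, against 5.86%. These 2 genes were named after their values were seen.

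Chains of 1 protein and copies of 1 gene were compared within libraries by their ratio of reads. Fga had 1.87 (1.84 to 1.9), 2.07 (2.03 to 2.11) and 2.12 (2.08 to 2.16) reads for each Fgg read in bezafibrate negative, positive and high. It had 2.95 (2.85 to 3.05) and 2.87 (2.78 to 2.97) in control positive and negative. The bezafibrate ratios lay below both control ratios, with no overlap of the intervals. Fgb had 1.33, 1.48 and 1.34 reads for each Fgg read in bezafibrate negative, positive and high, and 1.40 and 1.45 in control positive and negative, so these groups overlapped. Saa1 had 5.86 (3.67 to 9.80), 8.56 (5.09 to 15.4) and 5.50 (3.54 to 8.89) reads for each Saa2 read in bezafibrate negative, positive and high. The ratios were 2.78 (1.25 to 6.76) and 2.88 (1.60 to 5.44) in control positive and negative, lower than in each bezafibrate library but with overlapping intervals.

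**Figure D4:**
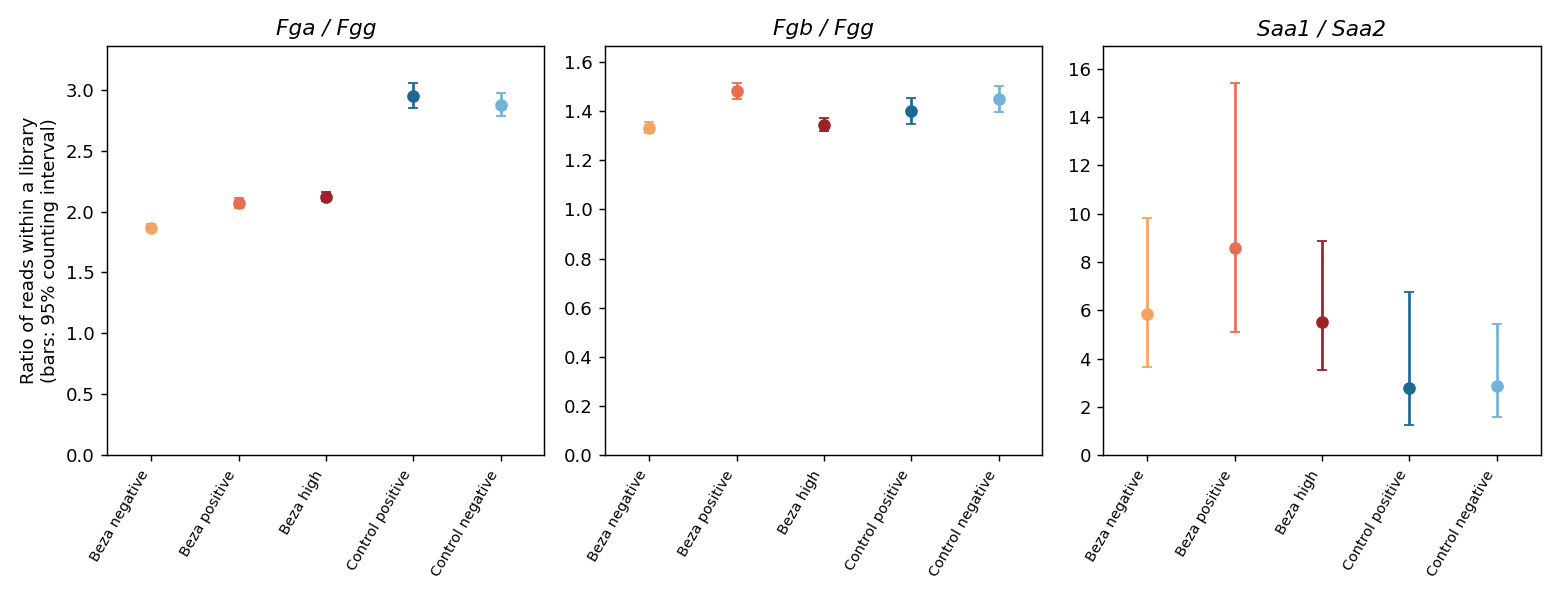
Ratio of reads of Fga to Fgg, of Fgb to Fgg and of Saa1 to Saa2 (y axes, from 0) within each of the 5 libraries (x axis), with 95% counting intervals. The Fga to Fgg ratio is 1.87 to 2.12 in the bezafibrate libraries and 2.87 and 2.95 in the control libraries, while Fgb to Fgg overlaps.

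Within bezafibrate mice, 5 of the 7 members analysed were lower in the positive than in the negative gate. The other 2 were above 0, and the median log2 difference was -0.34 against -0.012 over all genes, and 0 were 2-fold different in either direction, as for all but 0.134% and 0.123% of genes. Relative to the negative gate, Fgg was 0.713-fold (0.698 to 0.728), Apcs 0.712-fold (0.653 to 0.776), Orm1 0.781-fold (0.733 to 0.833), Fgb 0.792-fold (0.778 to 0.806) and Hp 0.903-fold (0.881 to 0.926). The counting interval lay below 1 for these 5 of the 10 members, against 12.8% of all genes, and above 1 for Saa1, against 9.80%. Saa4 had 1.03-fold (0.985 to 1.09). Alb was 0.668-fold (0.665 to 0.671) in the same comparison, and Rn45s 1.75-fold. Outside Rn45s, Hp was 1.0-fold and Saa4 1.15-fold, and Fgg and Apcs were 0.789-fold. In this gate comparison 10 of 10 negative acute phase genes and 24 of 25 other plasma protein genes were below 0, at medians of -0.39 and -0.38. Over all genes analysed, 4630 of 8973 were below 0.

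In the high gate, the 7 members analysed had folds of 0.815 to 1.13 over the positive gate. Saa1 was lowest at 0.815-fold (0.636 to 1.04), an interval that spans 1. Over the positive gate, Hp was 1.13-fold (1.1 to 1.16), Apcs 1.12-fold (1.02 to 1.23) and Fgg 1.07-fold (1.05 to 1.1). On the other side were Saa4 at 0.920-fold (0.875 to 0.967), Orm1 at 0.932-fold (0.870 to 0.998) and Fgb at 0.973-fold (0.955 to 0.992). Intervals lay above 1 for 3 of 10 members, against 6.57% of all genes, and below 1 for 3, against 6.04%, and 0 were 2-fold different, as for all but 0.0669% and 0.078% of genes. The median log2 difference was -0.039, against -0.0007 over all genes, and it was above 0 with equal column totals, a higher filter or no filter, so it has no steady sign. Over the negative gate, 5 members had counting intervals below 1, against 12% of all genes, and above 1 for 0, against 9.44%, and Orm1 was the lowest of those at 0.728-fold (0.684 to 0.775). The median log2 difference was -0.32, against -0.017 over all genes, and 0 members were 2-fold different, as for all but 0.111% and 0.156% of genes. The pair of comparisons with the positive gate share that library, and Orm1 and Fgb alone were lower at both steps with intervals clear of 1. Fgb was not lower than in the positive gate with equal column totals, at a log2 difference of 0.015. Orm1 was at -0.048 with that scaling, against -0.10 as deposited, and no counting interval was computed for it there.

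Between the gates of control mice the members differed little. All 7 members analysed were below 0 as deposited, as were 4293 of the 8973 genes analysed. With equal column totals, however, Saa4, Orm1 and Fgg had log2 differences of 0.011, 0.0027 and 0.0014. The members had a median log2 difference of -0.075 as deposited, against 0.0098 over all genes, and 0 were 2-fold different, as for all but 0.145% and 0.189% of genes. Relative to the negative gate, Hp was 0.949-fold (0.907 to 0.993) and Fgb 0.942-fold (0.910 to 0.975), while the intervals of Saa4, Orm1, Fgg and Apcs spanned 1. Saa1 was 0.571-fold (0.336 to 0.948), from 25 reads in control positive and 46 in control negative. Intervals lay below 1 for 3 of 10 members, against 3.67% of all genes, and above 1 for 0, against 3.68%. Alb was 0.949-fold (0.941 to 0.957) in this comparison.

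**Figure D5:**
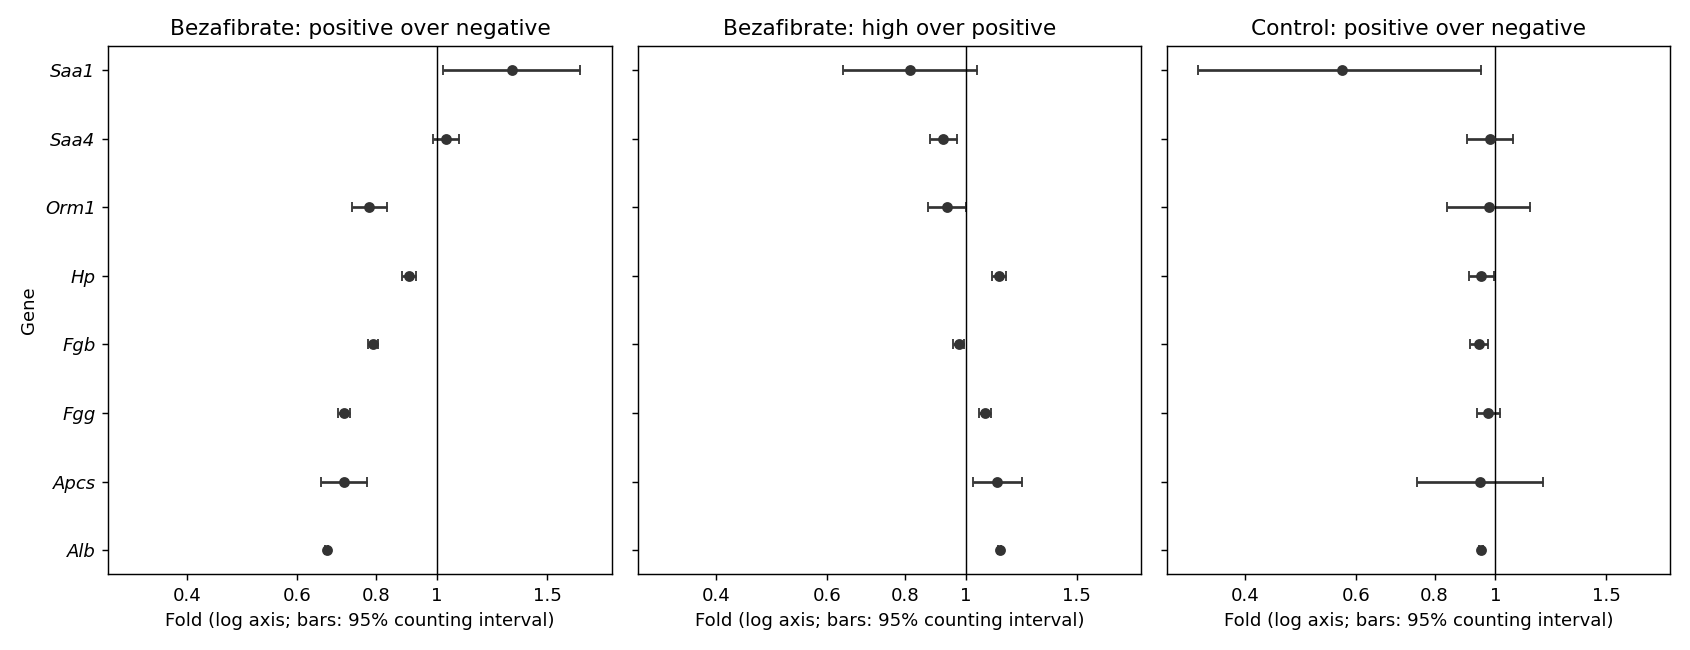
Fold between probe gates (log axis) for the 7 acute phase genes that passed the filter and for albumin, with 95% counting intervals. Left, bezafibrate positive over negative; middle, bezafibrate high over positive; right, control positive over negative. Folds lie between 0.668 and 1.32 on the left, while in control libraries all but Saa1 lie between 0.942 and 0.981.

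The gate fold in bezafibrate libraries divided by that in control libraries gives the gate by treatment difference. It was 0.732 (0.699 to 0.766) for Fgg, 0.752 (0.592 to 0.956) for Apcs, 0.801 (0.680 to 0.944) for Orm1 and 0.841 (0.809 to 0.874) for Fgb, with approximate 95% intervals from the log counts. It was 0.952 (0.904 to 1.0) for Hp and 1.05 (0.958 to 1.16) for Saa4, and 2.31 (1.34 to 3.98) for Saa1. Alb had 0.704 (0.697 to 0.710) on the same measure, below each of these members. These are counting intervals of 4 libraries, not tests between mice.

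The genes whose values over the 5 libraries lay nearest to the median profile of the members were found by Euclidean distance of centred log2 values. The search was limited to genes outside the members and the other lists, so other plasma protein genes of those lists could not appear. They were the respiratory complex I subunit gene Ndufc2 at a distance of 0.093, the mitochondrial adenylate kinase gene Ak3 at 0.11, Cyp2c44 at 0.11, the mitochondrial channel gene Vdac3 at 0.12 and the cadherin gene Cdh1 at 0.12. Ak3, for example, had 183, 139 and 146 normalised read counts in bezafibrate negative, positive and high, and 56.5 and 63.0 in control positive and negative. Among the members, Fgb was at 0.070 and Fgg at 0.14, with 0 and 11 of 8973 genes nearer, while Apcs was at 1.04, with 2214 genes nearer. The profile is made from the members, so their own distances are a description.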

How the data were processed

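The table the authors deposited holds a normalised signal per gene in 5 libraries. The tools named, per the submitters' processing notes, are RSEM, edgeR, Bowtie2 and Trimmomatic 0.36, beside build mm10, with no roles. The sources used here do not state the annotation, the normalization or the strand setting, and the labels' protocols name a directional kit. Each column of the deposited signal is a whole multiple of its smallest value above 0, for 100% of values with a tolerance of 0.001 reads, so whole reads were recovered and used for counting intervals. Depth was 5056884 to 7146578 reads, and every gene had at least 5 reads in all.

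Genes were analysed at a mean of 5.02 normalised read counts or more, with a pseudocount of 1.0 normalised read count on the log2 scale and a fold of 2 as the limit for counts. Exact Clopper-Pearson and Poisson intervals at 95% cover counting error only, since without molecular identifiers reads are no independent molecules. The members and the 15 other lists were chosen with earlier results of these data known. The genes named are all members, and the 2 most abundant and 2 most extreme genes of each list described. The 5 genes outside the lists that were nearest in profile were also taken, and the text says where a gene was named later. Steps were tested on simulated data. On the recovered reads, edgeR 4.0.16 in R 4.3.3 was run as an alternative, with DESeq2 1.42.0 for size factors. The remaining steps ran in Python 3.11.15 with scipy 1.17.1, pandas 2.3.3, numpy 2.4.6 and matplotlib 3.10.9. Positions and transcripts came from GENCODE for GRCm38.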

Additional observations from a re-analysis of the deposited data

Results flagged for a closer look

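Saa1 was picked out because its gate difference pointed opposite ways by treatment. The positive gate was 1.32-fold of the negative gate in bezafibrate libraries and 0.571-fold in control libraries, with each counting interval clear of 1. The difference between treatments was not tested between mice, as each value rests on 1 library and the control ones on 25 and 46 reads.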

How the results depend on the processing

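Alternatives were pseudocounts 5 and 0.2 times as large, 4 other scalings, other filters on low values, and summed copies (Saa1 with Saa2, Orm1 with Orm2). The counts of members at least 2-fold different stayed within 1.5 times in every comparison under every one of these 9 settings. Equal column totals moved the median log2 difference of members, bezafibrate minus control, to 1.42 in the positive and 1.70 in the negative gate. It moved that of bezafibrate high minus positive to 0.015, with the other sign. Equal totals outside Rn45s gave 1.1 in the positive and 1.21 in the negative gate, -0.19 for bezafibrate positive minus negative and -0.21 for high minus negative. With no filter, which adds Saa2, Orm2 and Lcn2, the medians were 1.36 for bezafibrate minus control in the negative gate, 0.091 for high minus positive and -0.11 for high minus negative. With a filter at 20, which drops Saa1, high minus positive was 0.031. The cause was not tested. Among all genes, equal column totals brought the median to 0.25 in the negative and 0.20 in the positive gate, and equal totals outside Rn45s to -0.22 and -0.11, against 0.025 and 0.0041 as deposited. In the negative gate equal totals outside Rn45s turned the split of all 2-fold genes to 545 higher and 1053 lower, against 919 and 526 as deposited, and in the positive gate to 333 and 366, against 443 and 261. Equal column totals gave 1444 and 267 in the negative and 820 and 131 in the positive gate, the larger pseudocount 626 and 317 and 273 and 138, and the filter at 20 gave 574 and 300 and 273 and 132. With no filter the positive gate had 665 and 421. An additive edgeR fit of gate and treatment on the recovered reads of 4 libraries called 4106 of 8973 genes, 2162 higher and 1944 lower, and 7 of 7 members, against 547 genes and 5 members at least 2-fold different in both gates. It has 1 residual degree of freedom and its error is the gate by treatment difference, so it is not a test between mice. Its 4 libraries are matched by gate. No paired analysis was possible because each group has 1 library, so that none can be matched by replicate. Outside Rn45s, Hp in bezafibrate positive minus negative and Saa4 in high minus negative turned to log2 differences of 0.00072 and 0.044, against -0.15 and -0.071 as deposited. Depth limits Saa2, Orm2 and Lcn2, at 2 to 43 reads a library.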
